A study of Sus scrofa with 6 samples.

Results

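The conjugation enzyme genes are the genes whose symbol begins with GSTA, GSTM, GSTP, GSTT, GSTO, GSTK, GSTZ, MGST, UGT, SULT or GLYAT. The count files list 25322 Ensembl gene IDs, of which 11804 carry a symbol, and 13 of the IDs met this rule. They are 6 soluble glutathione S-transferases (GSTA4, GSTM3, GSTO1, GSTO2, GSTT4 and GSTZ1), the microsomal glutathione S-transferase MGST3, 5 sulfotransferases (SULT1A3, SULT1C2, SULT1C3, SULT2B1 and SULT4A1) and the glycine acyltransferase-like gene GLYATL2. No listed ID carried a UGT symbol, so glucuronosyltransferases were not analysed here. A further 10 IDs with a symbol of these families in the supplied name table have no entry in the files and were not analysed here. The families were chosen with earlier results of these data known, and the members were then found by symbol alone.

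RNA was sequenced from fat, liver and muscle of Berkshire pigs and of Korean native pigs (Sus scrofa), with 1 library for each breed and tissue and 6 libraries in all. The labels used here name no treatment. They do not say whether tissues of a breed were taken from 1 animal. With 1 library for each breed and tissue, the spread behind the p-values is how far the breed difference varies between tissues. That spread may be partly technical, and it does not measure the spread among animals of a breed. Levels are in CPM, counts scaled to library size with TMM factors. A tissue mean carries the SD between its 2 libraries (n = 2), 1 of each breed, so the SD includes any breed difference. Where a pair of values is given for a tissue, the Berkshire library comes first.

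Conjugation, also called phase 2 metabolism, joins a drug, toxin, hormone or waste product to a polar group so that it can leave the cell. Glutathione S-transferases add or exchange glutathione, sulfotransferases add sulfate from the donor PAPS, and glycine acyltransferases join acyl-CoA to glycine. The liver is the main site of these reactions in mammals, and several of the enzymes also have roles in ordinary metabolism.

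Libraries held between 5897407 and 7912093 counts on genes, and 3 counts corresponded to between 0.294 and 0.692 CPM. Marker genes followed the labelled tissues. The 8 hepatocyte markers found, of 9 listed, summed to 209704 and 248227 CPM in liver and to at most 64.6 CPM in any fat or muscle library. The 3 adipocyte markers found (PLIN1, LIPE and CIDEC) summed to 2989 and 1532 CPM in fat, and the 3 muscle markers (ACTA1, MYL1 and TNNC2) to 67386 and 110640 CPM in muscle. In liver the erythroid markers HBB and ALAS2 summed to 247 and 2129 CPM, and the cholangiocyte markers SOX9 and EPCAM to 27.0 and 25.5 CPM. Endothelial PECAM1 stood at 113 CPM in both livers, and the 4 macrophage markers at 373 and 336 CPM. In bulk tissue, fewer cells of a type and less RNA per cell cannot be told apart.

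All 13 genes had at least 1 count in the Korean native liver, against 9 in the Berkshire liver, 10 and 9 in fat, and 9 and 7 in muscle. The Korean native liver also had the most counts on genes, 7912093. Of the genes at 0 counts in Berkshire liver, SULT4A1, SULT2B1 and GSTO2 had 1 count each in Korean native liver, and GLYATL2 had 89. The share of all genes with a count was not computed, so nothing is read from these numbers. In 8 of the 13 genes the level reached 10 CPM in at least 1 library. The summed level of the 13 genes was 655 and 862 CPM in liver, against 197 and 224 CPM in fat and 103 and 129 CPM in muscle. The reads of all 13 together made up 0.0516% and 0.0657% of counts on genes in liver and 0.0317% and 0.0341% in fat. In muscle the share was 0.00943% and 0.00951%. The gap between liver and fat was thus smaller without TMM factors.

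**Figure D1:**
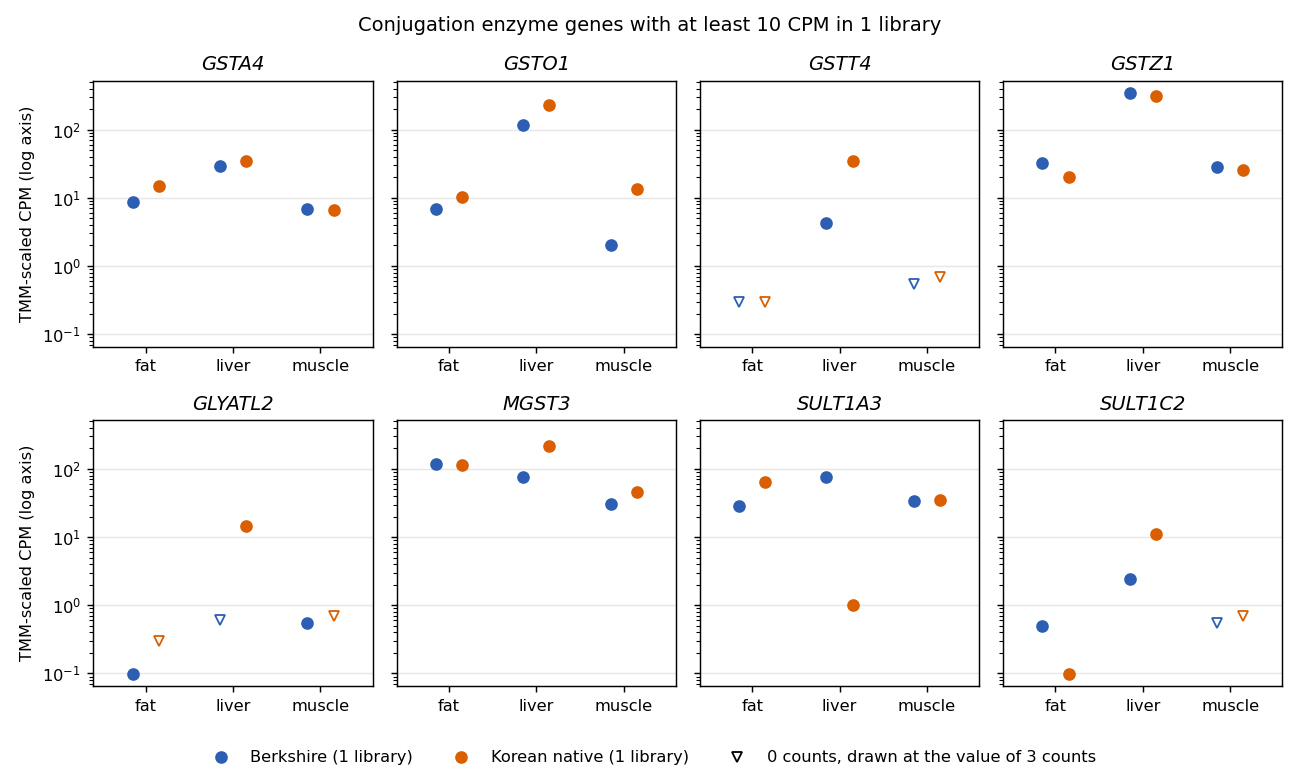
Levels of the 8 conjugation enzyme genes with at least 10 CPM in 1 library, on a log axis in TMM-scaled CPM. Each point is 1 library, blue for Berkshire and orange for Korean native, and an open triangle marks 0 counts at the value of 3 counts. GSTZ1, GSTO1 and GSTA4 stand highest in both livers, whereas SULT1A3 falls to 0.994 CPM in Korean native liver.

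The first comparison asked in which tissue each gene is expressed. The test across tissues was the quasi-likelihood test of edgeR over all 6 libraries, with tissue and breed in the model and p-values adjusted by Benjamini-Hochberg over the 13810 genes tested. Of the 13 conjugation genes, 8 had enough counts to be tested. GSTT4 and SULT1C2 passed that filter only through their liver counts, which set the direction in advance. Their calls as higher in liver are therefore a description. GSTZ1, GSTO1, GSTA4, GSTT4 and SULT1C2 rose in liver against fat and 0 of the 8 fell, where 15.2% of all genes tested rose and 13.5% fell. The same 5 genes and MGST3 rose in liver against muscle and 0 fell, against 18.6% and 17.4% of all genes. An unadjusted p under 0.05 was reached by 5 and 6 of the 8, the same genes, so GSTT4 and SULT1C2 add no support there either. The share of all genes under that unadjusted threshold was not counted, so nothing is read from these numbers. DESeq2 and limma-voom also called 0 members lower. Both comparisons use the same liver libraries.

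GSTZ1 is the zeta-class transferase that acts as maleylacetoacetate isomerase in tyrosine breakdown. Its level was 343 and 315 CPM in liver, 31.8 and 20.0 CPM in fat and 27.8 and 25.8 CPM in muscle. Both livers lay above every other library, and fat and muscle overlapped. The log2 difference was 3.69 ± 0.35 (SE) between liver and fat (edgeR adjusted p 4.6e-04) and 3.61 ± 0.35 between liver and muscle (adjusted p 3.6e-04). These calls held with each of the 6 libraries left out, with log2 values from 3.42 to 3.98 against fat.

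GSTO1 belongs to the omega class, whose members reduce dehydroascorbate and thiol adducts rather than conjugate drugs. Its level was 118 and 228 CPM in liver, 6.86 and 10.3 CPM in fat and 2.01 and 13.6 CPM in muscle. The livers did not overlap with any other library, while the muscle libraries lay on either side of those of fat. The log2 difference was 4.27 ± 0.53 between liver and fat (adjusted p 0.0014) and 4.72 ± 0.56 between liver and muscle (adjusted p 8.5e-04). All 6 fits with a library left out called GSTO1 in both comparisons, with log2 values of 3.78 to 4.86 against fat and 3.98 to 5.94 against muscle.

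GSTA4 codes for an alpha-class enzyme that detoxifies hydroxynonenal, a product of lipid peroxidation. Its level was 29.4 and 34.1 CPM in liver, 8.81 and 14.8 CPM in fat and 6.96 and 6.69 CPM in muscle. The order liver, fat, muscle was the same in both breeds. The log2 difference between liver and muscle was 2.20 ± 0.35 (adjusted p 0.0034), and it held with each library left out. Between liver and fat it was 1.45 ± 0.33 (adjusted p 0.017), and this call ended without Berkshire fat (1.15), Berkshire liver (1.37) or Korean native liver (1.54). It also ended with library totals in place of TMM factors (0.44), a scaling that moved the median of all genes from 0.06 to -0.94. Between muscle and fat the value was -0.75 ± 0.35 (adjusted p 0.18).

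GSTT4, a theta-class gene, had counts in liver only. It reached 21 and 207 counts in liver, or 4.20 and 34.3 CPM, and 0 counts in both fat and both muscle libraries. Mean liver expression of 19.3 ± 21.3 CPM was at least 131-fold higher than in fat and at least 62.9-fold higher than in muscle, taking 3 counts over both libraries as the floor. These bounds rest on the Korean native liver. Within Berkshire pigs alone, with 3 counts in 1 library as the floor, liver was at least 14.3-fold above fat and at least 7.65-fold above muscle. DESeq2 did not call GSTT4 in either comparison, with adjusted p of 0.12 and 0.16.

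SULT1C2 and SULT1C3 are members of the 1C group of sulfotransferases, which act on small phenolic compounds, and reads shared between such related genes can be lost or misplaced. SULT1C2 stood at 2.40 and 11.3 CPM in liver, 0.490 and 0.0986 CPM in fat and 0 counts in both muscle libraries. Its log2 difference between liver and fat was 4.18 ± 1.02 (adjusted p 0.028), and the mean in liver was at least 22.3-fold above muscle (adjusted p 0.015). Within Berkshire pigs alone the bound against muscle was 4.37-fold, and within Korean native pigs 16.3-fold. The call against fat ended without the Korean native fat (2.26) or liver library (2.28), and the call against muscle without the Korean native liver or muscle library, with adjusted p of up to 0.071. The call against fat rested on 5 and 1 counts in the fat libraries. SULT1C2 passed the count filter only through its liver counts, so both of its calls are a description. SULT1C3 was too low to be tested in the main fit, with 6 and 39 counts in liver and at most 1 count elsewhere.

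MGST3 codes for a membrane-bound transferase with glutathione peroxidase activity toward lipid hydroperoxides. Its level was 117 and 114 CPM in fat, 77.0 and 216 CPM in liver and 30.8 and 45.9 CPM in muscle. Liver lay 1.51-fold below fat in Berkshire (95% counting interval 1.35 to 1.70) and 1.90-fold above fat in Korean native pigs (1.76 to 2.06), with 1 library each. With TMM factors the liver libraries thus lay on either side of the fat libraries, and the fitted log2 value was 0.18 ± 0.41 (adjusted p 0.78). With library totals in place of TMM factors the log2 value was -0.81 (edgeR adjusted p 0.15). Korean native liver had 1305 counts and fat 1153, on 7912093 and 6676206 counts on genes, so its place above fat depends on the scaling.

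Both muscle libraries had less MGST3 than any other library. In muscle against fat MGST3 was the only member that fell (log2 -1.66 ± 0.42, adjusted p 0.039) and 0 rose, where 6.43% of all genes fell and 9.95% rose. DESeq2 and limma-voom also called 0 members higher there, and 1 of the 8 had an unadjusted p under 0.05. The share of all genes under that unadjusted threshold was not counted. The MGST3 call ended without Berkshire fat (-1.05), Berkshire muscle (-1.84) or Korean native muscle (-1.58) and without the breed term (-1.59). Against muscle, liver was higher by 1.84 ± 0.42 on the log2 scale (adjusted p 0.014), a call that ended without Korean native liver (1.15) or Korean native muscle (1.75).

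**Figure D2:**
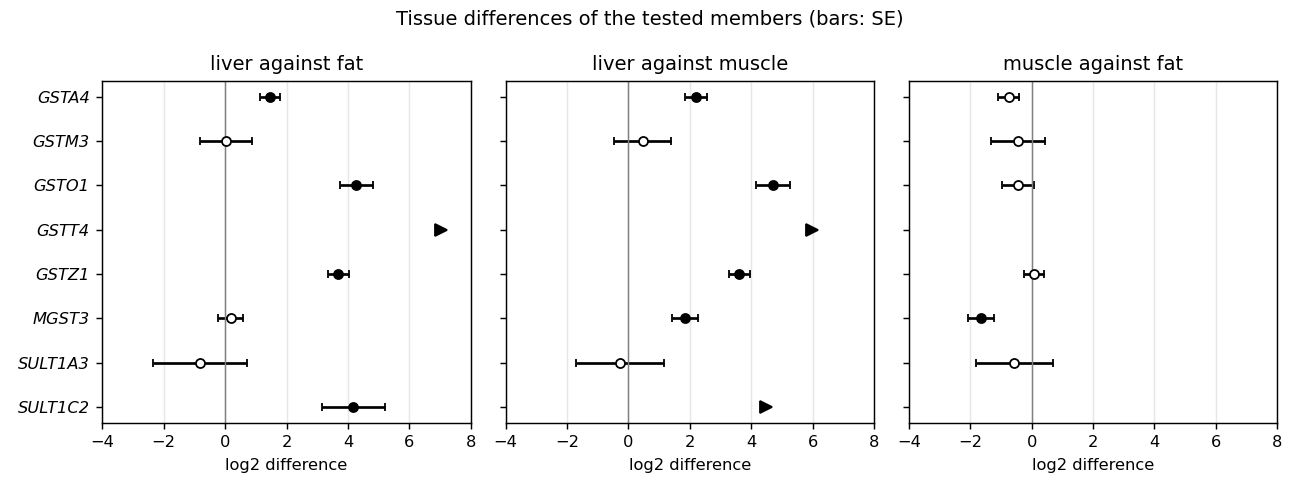
Log2 differences between tissues for the 8 tested conjugation genes, with SE, from the edgeR model over 6 libraries. Filled symbols had an adjusted p under 0.05, triangles are lower bounds against a tissue at 0 counts, and a gene with 0 counts in muscle has no point in muscle against fat. GSTZ1 and GSTO1 lie above 3 in both liver comparisons, whereas SULT1A3 has the widest error.

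SULT1A3 (ENSSSCG00000021557) stood far apart in the livers of the breeds. In human the gene of this name sulfates catecholamines, and the RefSeq table lists SULT1A1, in human the main phenol sulfotransferase of liver, as another name of the pig gene. Its level was 28.7 and 63.2 CPM in fat, 77.0 and 0.994 CPM in liver and 33.7 and 35.1 CPM in muscle. In TMM-scaled CPM the Berkshire liver was the highest of the 6 libraries and the Korean native liver the lowest. The top rank depends on TMM scaling, with factors of 1.62 and 1.52 in fat and 0.790 and 0.764 in liver. Berkshire liver had 385 counts and Korean native fat 641, on 6339425 and 6676206 counts on genes.

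No tissue comparison called SULT1A3 with all 6 libraries, the log2 value between liver and fat being -0.83 ± 1.53 (adjusted p 0.73). Without the Berkshire liver it was -5.73 (adjusted p 7.4e-05), and without the Korean native liver it was 1.13 (adjusted p 0.19). Against muscle these values were -5.42 (adjusted p 9.4e-05) and 1.44 (adjusted p 0.061). Within Berkshire pigs liver lay 2.68-fold above fat (95% counting interval 2.30 to 3.14), and within Korean native pigs it lay 63.6-fold below fat (29.0 to 174). These ratios use TMM factors. With library totals in their place the fitted log2 value between liver and fat over all 6 libraries was -1.94.

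GLYATL2 (ENSSSCG00000013148), which in human makes acylglycines from long-chain acyl-CoA, had most of its counts in 1 library. There were 89 counts (14.7 CPM) in Korean native liver, 0 in Berkshire liver, 1 in Berkshire fat, 3 in Berkshire muscle and 0 in Korean native fat and muscle. It did not pass the filter on low counts, so the main fit did not test it. A fit without that filter called it in liver against fat (log2 6.22) through 1 liver library, so nothing is read from that call.

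The remaining genes were low in all tissues. GSTM3, a mu-class transferase, ranged from 0.497 to 3.00 CPM and had a log2 value of 0.02 ± 0.85 between liver and fat (adjusted p 0.99). SULT2B1, which sulfates cholesterol and other sterols, reached 17 and 7 counts in fat and at most 3 elsewhere. GSTO2 and SULT4A1 had at most 2 counts in any library.

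The second comparison asked how the Korean native libraries differ from the Berkshire libraries over the 3 tissues. In the edgeR model 0 of the 8 tested conjugation genes were higher and 0 lower, where 0.029% of all genes were higher and 0.0797% lower. DESeq2 and limma-voom also called 0. At an unadjusted p under 0.05 there were 2, GSTO1 and GSTT4, the latter with counts in liver alone. The share of all genes under that unadjusted threshold was not counted, so nothing is read from this number. GSTO1 stood higher in the Korean native library of each tissue, by 1.50-fold in fat, 1.94-fold in liver and 6.76-fold in muscle. Its log2 value over tissues was 1.27 ± 0.41, with an edgeR adjusted p of 0.49. It was 0.78 without the Berkshire or without the Korean native muscle library. GSTZ1 stood lower in each tissue, by 1.59-fold in fat, 1.09-fold in liver and 1.08-fold in muscle (log2 -0.30 ± 0.26, adjusted p 0.83). GSTO1 and GSTZ1 were the 2 with the same direction in all 3 tissues, among 5 members with 5 CPM or more in a library of each tissue. In muscle the GSTZ1 ratio of Korean native over Berkshire was 0.929, and its counting interval of 0.721 to 1.19 includes equal levels. The share of all genes with the same direction in all 3 tissues was not computed, so nothing is read from the number of such members.

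Within a tissue each breed had 1 library, so no test was possible. Ratios carry 95% intervals that cover counting error only. Genes were counted as apart at 4-fold or more, with a prior count of 2 and 10 CPM or more in either library. Ranks among genes are of that ratio with the prior count, whereas the fold values and bounds printed beside them have no prior count.

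In liver, 8 conjugation genes reached that level, of which 3 stood at least 4-fold higher and 1 at least 4-fold lower in the Korean native library. Among all genes at that level, the shares were 1.36% and 1.41%. Each of the 4 reached 10 CPM in only 1 of the livers, the one in which it was higher. With 10 CPM required in both livers the number was 0, so nothing is read from the count or from the ranks of these 4. SULT1A3 had 385 counts in Berkshire and 6 in Korean native liver, a 77.5-fold lower level in the latter (35.3 to 212). This was the 16th lowest ratio among 8357 genes. SULT1A3 and GLYATL2 were examples named with the rule when earlier results of these libraries were known, so their liver ratios are a description. GLYATL2 went from 0 to 89 counts and was at least 24.6-fold higher in Korean native liver, the 8th highest ratio. GSTT4 was 8.16-fold higher (5.20 to 13.5), the 50th highest, and SULT1C2 was 4.69-fold higher (2.52 to 9.53).

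SULT1C3 went the same way as SULT1C2, at 1.20 and 6.46 CPM in liver, a ratio of 5.38 (2.26 to 15.6), but stayed below the level needed to be counted. MGST3 stood 2.81-fold higher in Korean native liver (2.50 to 3.15) and GSTO1 1.94-fold higher (1.76 to 2.14). GSTZ1 and GSTA4 had ratios of 0.917 (0.859 to 0.980) and 1.16 (0.935 to 1.44). Low counts limit GSTM3, with 15 counts in Berkshire and 3 in Korean native liver.

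The liver ratios went both ways within a single family, since SULT1A3 was lower and SULT1C2 higher in the same library. Erythroid HBB moved with the higher genes, at 233 and 2031 CPM, as did the macrophage gene MARCO at 9.80 and 83.8 CPM, whereas CD68, CSF1R and CD14 stood lower in Korean native liver. The part of these cells in the ratios was not tested. Reads without a unique alignment made up 20.8% of the Berkshire liver entries and 17.1% of the Korean native liver entries, and were not counted on any gene. Near-identical copies may therefore lose reads, and the levels of SULT1A3, SULT1C2, SULT1C3, GLYATL2, GSTO1, GSTT4, GSTA4 and GSTM3 are uncertain in that respect. Beside SULT1A3 in the RefSeq gene order lies SGF29, at 19.2 and 11.4 CPM in liver. Beside GLYATL2 lies FAM111B, at 7.40 and 8.62 CPM.

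**Figure D3:**
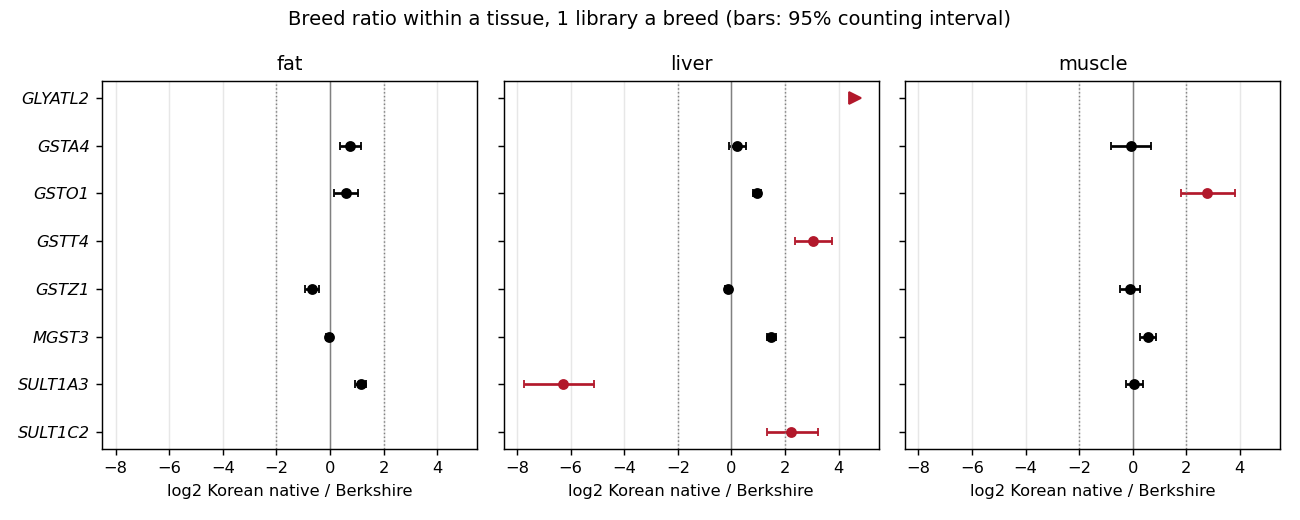
Log2 ratio of Korean native over Berkshire CPM in each tissue for the 8 genes with at least 10 CPM in 1 library. Bars are 95% counting intervals from 1 library a breed, the triangle is a lower bound, dotted lines mark 4-fold, red marks genes counted as 4-fold apart, and genes below 1 CPM in both libraries of a tissue are not drawn. SULT1A3 lies far to the left in liver, to the right in fat at 2.20-fold, and near 0 in muscle.

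In fat, 5 conjugation genes reached 10 CPM in 1 library and 0 of them were 4-fold apart, where among all genes at that level 0.625% stood 4-fold higher and 0.851% lower. SULT1A3 had the largest ratio, standing 2.20-fold higher in Korean native fat (1.91 to 2.54), which was the 252nd highest among 7994 genes. GSTA4 and GSTO1 stood 1.68-fold (1.28 to 2.20) and 1.50-fold (1.09 to 2.06) higher. GSTZ1 stood 1.59-fold lower (1.33 to 1.90), and MGST3 had a ratio of 0.976 (0.899 to 1.06). Adipocyte markers were lower in the same library, at 2989 and 1532 CPM, and macrophage markers higher, at 70.9 and 153 CPM. Their part in these ratios was not tested.

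In muscle, 4 conjugation genes reached 10 CPM in 1 library. GSTO1 was the only 1 of them 4-fold apart, at 11 and 59 counts or 6.76-fold higher in the Korean native library (3.52 to 14.3), the 40th highest ratio of 8252 genes. Among all genes at that level in muscle, 1.16% were higher and 1.65% lower by 4-fold. GSTO1 reached 10 CPM in the Korean native muscle only, and with 10 CPM required in both muscle libraries the number was 0. Nothing is therefore read from the count or from the GSTO1 rank. MGST3 stood 1.49-fold higher (1.21 to 1.84), whereas SULT1A3 had a ratio of 1.04 (0.834 to 1.30) and GSTZ1 of 0.929 (0.721 to 1.19). Muscle markers were higher in that library, at 67386 and 110640 CPM, and adipocyte markers lower, at 241 and 51.7 CPM. Their part in the GSTO1 ratio was not tested.

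The genes that supply, activate, regulate and export around these enzymes were compared in the same model, over 7 lists. The shares of all genes tested, against which each count is read, were 15.2% higher and 13.5% lower in liver than in fat, and 18.6% and 17.4% in liver than in muscle. Of 15 listed genes of glutathione supply 7 were tested, of which 4 were higher and 1 lower in liver than in fat (median log2 1.89, against 0.06 over all genes tested). GCLC, the catalytic subunit of the rate-limiting step of glutathione synthesis, stood at 251 ± 168 CPM in liver, 23.2 ± 5.60 in fat and 19.9 ± 5.12 in muscle (log2 3.30 ± 0.39 between liver and fat, adjusted p 0.0011). CTH, which makes the cysteine for it, stood at 578 ± 178 CPM in liver and 6.33 ± 2.96 in fat (adjusted p 1.1e-04). GGT5, a gamma-glutamyl transferase, was the member that fell, at 6.37 ± 0.333 CPM in liver and 20.0 ± 2.75 in fat (adjusted p 0.018).

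Donor supply was compared in the same way. Of 10 listed sulfate donor genes 5 were tested, of which 1 was higher in liver than in fat, a share near that of all genes. It was PAPSS2, a PAPS synthase, at 149 ± 52.5 and 18.0 ± 2.14 CPM (log2 2.99 ± 0.37, adjusted p 0.0014). In liver the PAPSS2 level was 186 and 112 CPM. Of 5 tested genes listed for UDP-glucuronic acid and glucuronides 3 rose in liver against fat and 0 fell. Of these, UGP2 makes UDP-glucose upstream of the donor, whereas SLC35A3 carries UDP-N-acetylglucosamine and GUSB cleaves glucuronides, so neither of the latter supplies the donor. UGDH, which makes the glucuronic acid donor, rose in liver against muscle only (log2 3.10 ± 0.55, adjusted p 0.0053), its value against fat being 1.31 ± 0.50 (adjusted p 0.096).

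Of 7 genes listed for the activation of acids before amino acid conjugation 3 were tested, the acyl-CoA ligases ACSM3, ACSM4 and ACSM5. All 3 rose in liver against fat. ACSM1, ACSM2A, ACSM2B and BAAT were not found by symbol, so most of this list was not measured. ACSM4 stood at 1419 and 2283 CPM in liver and at most 2.54 CPM elsewhere. It passed the count filter only through its liver counts, so its call is a description. ACSM5 stood at 53.8 and 59.0 CPM in liver but at 9.52 and 84.4 CPM in muscle, where the breeds were 8.87-fold apart. Both were measured in the Berkshire liver, in which GLYATL2 had 0 counts.

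Of 9 tested phase 2 enzymes outside the families 8 were higher and 1 lower in liver than in fat, the latter near the share of all genes. EPHX1, microsomal epoxide hydrolase, stood at 760 ± 120 CPM in liver and 63.0 ± 17.7 in fat (adjusted p 9.0e-04). The gene that fell was NQO1, a quinone reductase, at 11.6 ± 7.06 CPM in liver and 41.2 ± 18.7 in fat (adjusted p 0.050). NNMT, nicotinamide methyltransferase, had 0 counts in fat and muscle and stood at 759 and 86.8 CPM in liver. It passed the count filter only through its liver counts, so its call as higher is a description. It was the only gene of this list 4-fold apart between the livers.

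Among 13 tested regulators 8 rose in liver against fat and 0 fell, where 15.2% of all genes tested rose and 13.5% fell. NR1I2, NR1H4, HNF4A and FOXA2 among the 8 passed the count filter only through their liver counts, so their calls are a description. NFE2L2, which drives many glutathione transferase genes under oxidative stress, was not called in any tissue comparison, with means of 168 ± 15.8 CPM in liver, 185 ± 16.0 CPM in fat and 176 ± 52.2 CPM in muscle (log2 -0.14 ± 0.35 between liver and fat, adjusted p 0.80). The drug-sensing receptors NR1I2 and NR1I3 stood at 172 and 221 CPM and at 58.0 and 61.8 CPM in liver. AHR, the dioxin receptor, was the only regulator 4-fold apart between the livers, at 73.2 and 304 CPM. Of 10 transporter genes listed for export 6 were tested, of which 4 rose in liver against fat and 0 fell. They were ABCC3, ABCC6, SLCO2B1, which is an uptake transporter, and ABCC2, a canalicular pump for conjugates, at 183 and 415 CPM in liver. ABCC2 passed the count filter only through its liver counts, so its call is a description. Against muscle, the numbers higher and lower in liver were 5 and 0 for glutathione supply, 3 and 1 for UDP-glucuronic acid and glucuronides, 2 and 0 for sulfate donors, 2 and 0 for the acyl-CoA ligases, 8 and 0 for other phase 2 enzymes, 9 and 0 for regulators and 4 and 1 for transporters. Over all genes tested 18.6% were higher and 17.4% lower, and a single gene lower among 5 or 6 is near that share. The numbers higher include the genes that passed the count filter only through liver, whose calls are a description. In the edgeR breed model no gene of the 7 lists was called.

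**Figure D4:**
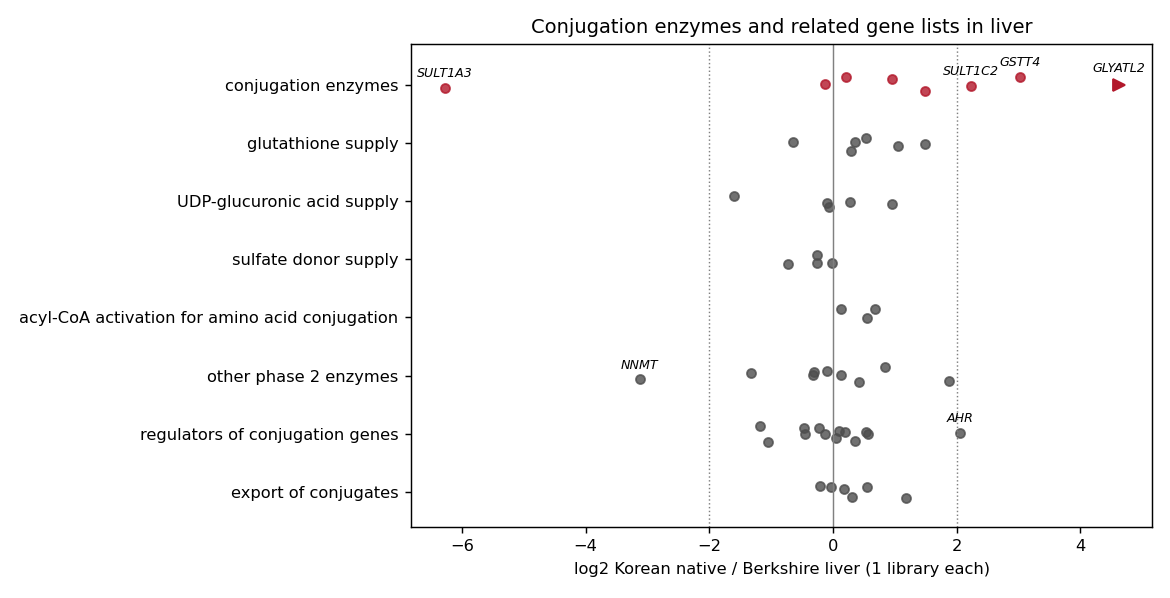
Log2 ratio of Korean native over Berkshire liver for conjugation genes (red) and for 7 lists of related genes (grey), each point a gene with 10 CPM or more in either library. Vertical scatter only separates points, dotted lines mark 4-fold, and the triangle is a lower bound. SULT1A3 at 77.5-fold lower stands left of all genes drawn, and NNMT and AHR are the list genes beyond 4-fold.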

How the data were processed

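The authors deposited whole-number read counts for each Ensembl gene ID in 6 libraries, without normalization. Per the submitters' processing notes the authors used TopHat, HTSeq 0.5.3p3 and the Sscrofa10.2 build; for annotation release, strand setting and counting mode, nothing is given in the sources used here. Reads of overlapping genes on opposite strands cannot therefore be assigned with certainty. The 5 closing entries of a file name no gene and were left out. Those entries held 45.9% to 52.5% of reads outside genes and 14.1% to 20.8% without a unique alignment. Symbols came from the supplied name table; RefSeq Sscrofa11.1 gave gene order and synonyms only. No sequence is shown.

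Counts were filtered by filterByExpr, scaled by TMM and tested with edgeR 4.0.16 (R 4.3.3) on tissue plus breed, two-sided, with 2 residual degrees of freedom and adjusted p under 0.05. Each SE is the log2 value over the root of its F statistic. DESeq2 1.42.0 and limma 3.58.1 were alternatives. Ratios within a tissue have exact 95% intervals. Members and lists were chosen with earlier results of these data known. Members reaching 10 CPM in 1 library, with SULT1A3 and GLYATL2, are given in every library; examples from lists were chosen after their values were seen.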

Additional observations from a re-analysis of the deposited data

Results flagged for a closer look

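SULT1A3 was flagged because its breed difference went in opposite directions in different tissues, by at least 2-fold in each. With a prior count of 2, the log2 ratio of Korean native over Berkshire was -5.91 in liver and 1.13 in fat. Each value comes from 1 library a breed, and the difference between the tissues was not tested. In muscle the ratio was 1.04.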

How the results depend on the processing

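For single genes, 287 log2 values under an alternative kept their side of the threshold, 16 lost a call and 3 gained one, and 0 called values changed sign. Members lower in muscle than in fat numbered 1, but 2 with library totals in place of TMM factors, 0 without the breed term and 0 to 1 with a library left out. With a library left out, 3 to 7 members were higher in liver than in fat (5 with all libraries), 0 to 1 lower in liver than in fat, and 0 to 1 lower in liver than in muscle. The gene lower in liver was SULT1A3, without the Berkshire liver. Where 6 or 7 members were higher in liver than in fat, SULT1C3 and GLYATL2 had passed the count filter through their liver counts alone, and nothing is read from the added calls. A library left out leaves 1 sample in a tissue, which is assumed to vary like the rest. With all libraries and no filter on counts, 7 members were higher in liver than in fat and 7 than in muscle. The added genes were SULT1C3 in both and GLYATL2 against fat, with almost all counts in liver, so nothing is read from them either. Genes 4-fold apart between breeds numbered 0 in liver and 0 in muscle with 10 CPM required in both libraries, from 4 and 1, and a 2-fold threshold gave 1 in fat, from 0. The model takes breed as a block for tissues and tissue as a block for breeds; apart from MGST3 in muscle against fat, no number of calls changed without that term. The labels pair no replicates. Depth limits GSTM3, GSTO2, SULT1C3, SULT2B1 and SULT4A1, which never reached 10 CPM.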
